A study of Caenorhabditis elegans with 2 samples.

Results

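ROW-1 is a zinc finger protein of the nematode Caenorhabditis elegans, and its calls at the genes of small nucleolar RNAs (snoRNAs) were examined by chromatin immunoprecipitation and sequencing (ChIP-seq). A call belonged to the set when its summit lay from 500 bp upstream to 200 bp downstream of the 5' end of a snoRNA gene. Of the 29979 nuclear calls in the pooled list of both replicates, 204 met this rule, and they lay at 176 of the 346 annotated nuclear snoRNA genes. The strain, OP510, carries the transgene wgIs510, which encodes F37D6.2 (ROW-1) with GFP and FLAG at its C-terminus, in the unc-119(tm4063) background. Hermaphrodites were collected whole as L4 larvae, 48 h after release from starvation as L1 larvae, and the tagged protein was recovered with an antibody against GFP. The single group held 2 biological replicates, so there was no contrast of conditions and no test of one. Without an input or another GFP-tagged protein among the files used, signal that a site may give with any such protein was not separated from that of ROW-1. Whole animals mix all tissues, and neither the cell type that holds a call nor its share of the cells is known.

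Small nucleolar RNAs guide the chemical modification of other RNAs, mainly ribosomal RNA. The C/D type pairs with its target and directs methylation of the ribose by fibrillarin, and the H/ACA type directs the conversion of uridine to pseudouridine by dyskerin. In nematodes many of these genes lie in introns of protein-coding host genes, from which the RNA can be released by splicing, while others stand alone. Genes transcribed by RNA polymerase III, such as tRNA genes, often carry a pair of short promoter elements called the A box and the B box.

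The snoRNA genes were separated by their surroundings. An intron of a protein-coding gene on the same strand enclosed 150 of them, in 130 host genes, and 124 were free-standing, with no protein-coding gene over them on either strand. A further 28 lay in an intron on the opposite strand, and 44 overlapped a protein-coding gene in another way, for example across an exon. Gene lengths ran from 54 to 344 bp with a median of 130 bp.

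Some of the genes with a call just before the 5' end carried recognisable letters there, and a few, with strong and weaker calls, are shown because the genes are grouped by these letters further on. Each run holds 110 bases before the 5' end and the first 30 bases of the gene, on the strand of the gene, from the RefSeq sequence of WBcel235 (ce11). None of these summits lay in the window of a protein-coding gene. In the first set the capitals mark matches to TGGCNNAG, the core of the A box, and to GTTCNANNC, a relaxed core of the B box (N is any base). Y43F8C.22 and ZK546.18 are intronic, in Y43F8C.7 and in the Mediator subunit gene mdt-4, and W03C9.9 and F32E10.10 are free-standing.
Y43F8C.22 (chrV:19643158-19643297, minus strand): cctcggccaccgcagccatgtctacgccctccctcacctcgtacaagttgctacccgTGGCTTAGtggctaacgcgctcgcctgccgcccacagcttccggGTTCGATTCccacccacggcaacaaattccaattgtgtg
ZK546.18 (chrII:4942490-4942629, minus strand): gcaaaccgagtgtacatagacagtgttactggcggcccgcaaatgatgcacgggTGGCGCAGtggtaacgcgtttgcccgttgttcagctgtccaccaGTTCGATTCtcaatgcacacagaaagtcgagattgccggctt
W03C9.9 (chrII:11960788-11960927, plus strand): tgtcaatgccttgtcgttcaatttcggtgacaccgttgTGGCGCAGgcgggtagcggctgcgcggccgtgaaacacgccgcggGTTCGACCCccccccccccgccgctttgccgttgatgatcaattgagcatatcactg
F32E10.10 (chrIV:7574012-7574151, plus strand): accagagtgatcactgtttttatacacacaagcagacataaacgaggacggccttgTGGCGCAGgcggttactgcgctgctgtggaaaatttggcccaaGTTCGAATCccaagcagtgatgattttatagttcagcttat
In these genes the elements precede the annotated 5' end of the snoRNA, whereas tRNA genes carry them inside the transcribed sequence.

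A second set shared other letters, AAC and TGTC separated by 8 bases, which are in capitals. ZK994.7 and C16D9.11 lie in introns of pxn-1, which encodes a peroxidasin, and of rol-3, which encodes a receptor tyrosine kinase, and T26A8.6 is free-standing.
ZK994.7 (chrV:8500469-8500608, plus strand): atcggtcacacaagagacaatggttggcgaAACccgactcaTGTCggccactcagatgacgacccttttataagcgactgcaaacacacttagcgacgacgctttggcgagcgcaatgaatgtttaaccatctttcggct
C16D9.11 (chrV:8228940-8229079, minus strand): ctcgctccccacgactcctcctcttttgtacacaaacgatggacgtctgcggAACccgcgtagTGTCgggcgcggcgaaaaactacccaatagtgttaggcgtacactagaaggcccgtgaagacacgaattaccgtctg
T26A8.6 (chrIV:8428710-8428849, minus strand): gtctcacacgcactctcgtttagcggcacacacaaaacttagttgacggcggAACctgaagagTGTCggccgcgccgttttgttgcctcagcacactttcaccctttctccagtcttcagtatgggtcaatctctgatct
No exact match to either set of letters was found at C27H6.5, in an intron of the synaptic gene unc-41, or at the free-standing M7.15. Both had a strong call. Variants were not searched for, and C27H6.5 holds TGGTGCAG and, further on, GCTCGACCC, each differing from a box core by a single base.
C27H6.5 (chrV:9970242-9970381, minus strand): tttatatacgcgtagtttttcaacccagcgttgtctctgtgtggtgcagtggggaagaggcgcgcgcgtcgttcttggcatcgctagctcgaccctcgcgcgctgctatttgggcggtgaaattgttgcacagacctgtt
M7.15 (chrIV:11083037-11083176, plus strand): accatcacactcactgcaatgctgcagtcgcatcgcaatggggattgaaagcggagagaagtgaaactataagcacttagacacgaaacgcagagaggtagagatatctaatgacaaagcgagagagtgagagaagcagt

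Calls were found at about 1 in 2 snoRNA genes, and they were stronger than the run of calls. The share with a call was 50.9% (176 of 346, exact 95% interval 45.5 to 56.3), against a background of 22.1% of all nuclear genes of any type in the same window. That background includes 15363 piRNA genes, of which 9.92% had a call. By the 5' end of the gene alone, the share was 25.9% of protein-coding genes and 33.6% of ncRNA genes. Peaks of the optimal list, which holds those past the submitters' threshold on the irreproducible discovery rate (IDR), had their summit in the window of 74 snoRNA genes (21.4%, exact 95% interval 17.2 to 26.1), against 3.33% of all nuclear genes. Of the 204 calls, 90 (44.1%) overlapped an optimal peak, against 6.62% of all nuclear calls. The median signal of the 204 calls was 50.2, with quartiles of 25.1 and 107, and all nuclear calls had a median of 19.96. These signals are the authors' own values on a scale that is not given, and are used only within a list. The pooled list was made to hold background as well as peaks: 83 of the 204 calls had a q-value above 0.05, and 98 were tied at the largest −log10 q of the list. Intervals cover counting error only, because read depth is unknown.

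Other small RNA genes gave the same measures in the same window, set beside these with no test. The tRNA genes had a call in 464 of 612 cases (75.8%) and an optimal peak in 22.9%. The snRNA genes had a call in 31.0% and the microRNA genes in 36.0%, with optimal peaks in 10.9% and 6.90%. Median signals were 46.8 at tRNA genes, 45.2 at snRNA genes and 24.6 at microRNA genes. None of the 204 snoRNA calls lay in the window of a tRNA gene, 3 lay in that of an snRNA gene, 2 in that of a microRNA gene and 45 in that of an ncRNA gene. Among all 29979 nuclear calls, only 488 lay in a tRNA window, 55 in an snRNA window and 99 in a microRNA window. The absence from tRNA windows is thus not read as a separation. The count over all calls for ncRNA genes is not given here. A protein-coding 5' end was in reach of 54 calls (26.5%), counting every annotated transcript. Of the 29979 nuclear calls, 5211 were in reach of one by a narrower count, with the 5' end of the gene alone.

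In the pooled list free-standing and intronic genes had calls at similar rates, and other lists and windows put either class higher. A call was found at 64 of 124 free-standing genes (51.6%, exact 95% interval 42.5 to 60.7) and at 76 of 150 intronic genes (50.7%, 42.4 to 58.9). For genes antisense in an intron the count was 19 of 28 (67.9%, 47.6 to 84.1), and for the other overlaps 17 of 44 (38.6%, 24.4 to 54.5). The intervals of all these classes overlap, and the differences were not tested. In replicate 1 alone the shares were 59.7% (50.5 to 68.4) of free-standing and 44.7% (36.6 to 53.0) of intronic genes, and in replicate 2 they were 46.8% and 48.7%. From 250 bp upstream to 100 bp downstream they were 44.4% and 33.3% in the pooled list, and among the strongest 10.4% of calls 36.3% and 26%. From 1000 bp upstream to 500 bp downstream they were 66.1% and 70%. By overlap of the call in place of its summit they were 62.1% and 66%. Optimal peaks were at 33 free-standing genes (26.6%, 19.1 to 35.3) and at 27 intronic genes (18.0%, 12.2 to 25.1). One call was in reach of 144 genes and 2 calls of 32 genes, and 4 calls lay in the windows of 2 snoRNA genes each.

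Summits piled up immediately before the 5' end. Of the 208 pairs of a call and a gene, 154 (74.0%) had the summit upstream, and 104 (50%) had it between 100 bp upstream and 50 bp downstream, a range chosen after the positions were seen and called close below. The median close summit lay 32.5 bp upstream. The 50 bp before the 5' end held 15.9 summits per 100 snoRNA genes, beside 2.23 per 100 protein-coding genes, whose highest value was 3.19 in the stretch from 200 to 151 bp upstream. At free-standing genes the same 50 bp held 18.5 summits per 100 genes and at intronic genes 14, so both classes had their highest value there. Beyond 150 bp upstream and 50 bp downstream, the 50-bp bins of all snoRNA genes out to 1000 bp held between 4 and 16 summits each, against 55 in the 50 bp before the 5' end.

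**Figure D1:**
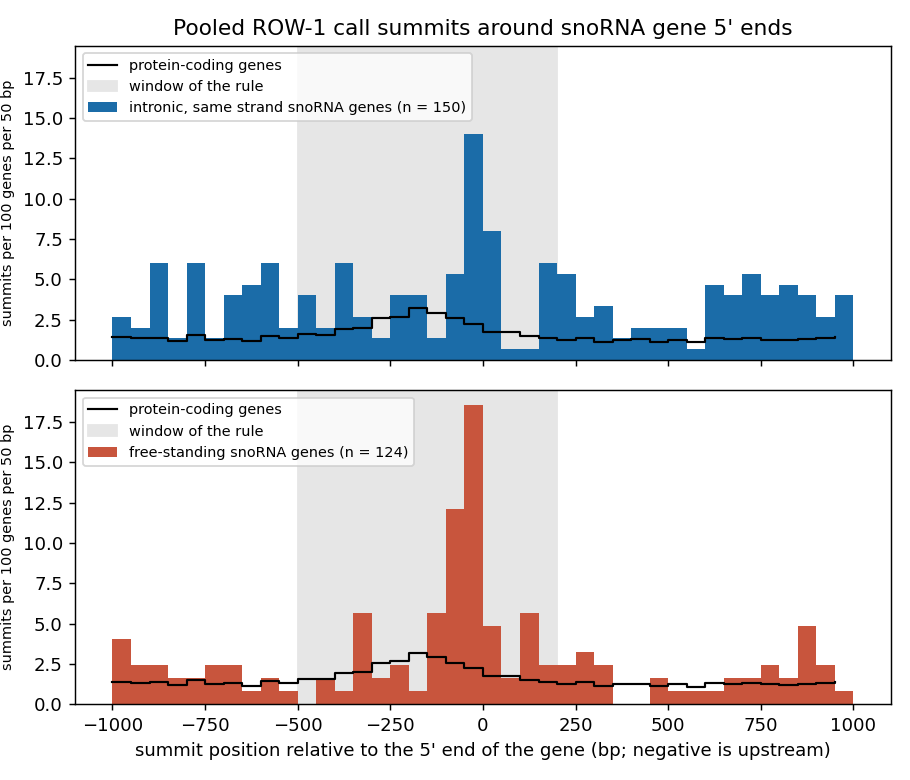
Summits of pooled calls per 100 genes in 50-bp bins (vertical axis) by position relative to the 5' end (horizontal axis, bp), for 150 intronic and 124 free-standing snoRNA genes (bars) and protein-coding genes (line). Both snoRNA classes have their tallest bar, 14 and 18.5, in the 50 bp before the 5' end.

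In the pooled list the close calls had the higher median signal, while in the optimal list, which held few pairs further away, they did not. The 103 close calls had a median signal of 81.9 (95% interval of the median by order statistics 64.9 to 96.99), and the 101 further away had 30.2 (26.4 to 36.1). Among free-standing genes the medians were 96.3 for 44 close calls and 31.0 for 35 others. Among intronic genes they were 78.3 for 41 close calls and 27.1 for 47 others. An optimal peak overlapped 61 of the 103 close calls (59.2%) and 29 of the 101 others (28.7%), and the background of all nuclear calls was 6.62%. Such overlap also counts weak calls beside a stronger one. At T19B4.8 the call 149 bp downstream had a signal of 50.1, and the optimal peak it overlapped had 176 and a close summit. By the summits of the optimal list itself, 60 of 76 pairs (78.9%) were close. The medians thus lay further apart by the distance of the summit than by the class of the gene, and neither difference was tested. Within the optimal list alone the order was the reverse, with medians of 123 for the 60 pairs with a close summit and 159.6 for those further away. The optimal medians were 119 and 238 at intronic genes, where 21 of 27 pairs were close, and 129 and 140 at free-standing genes, where 28 of 35 were close. The few intronic pairs further away include C06A1.9 (739), F54E7.10 (317) and Y24D9A.9 (314), all in the window of the host.

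**Figure D2:**
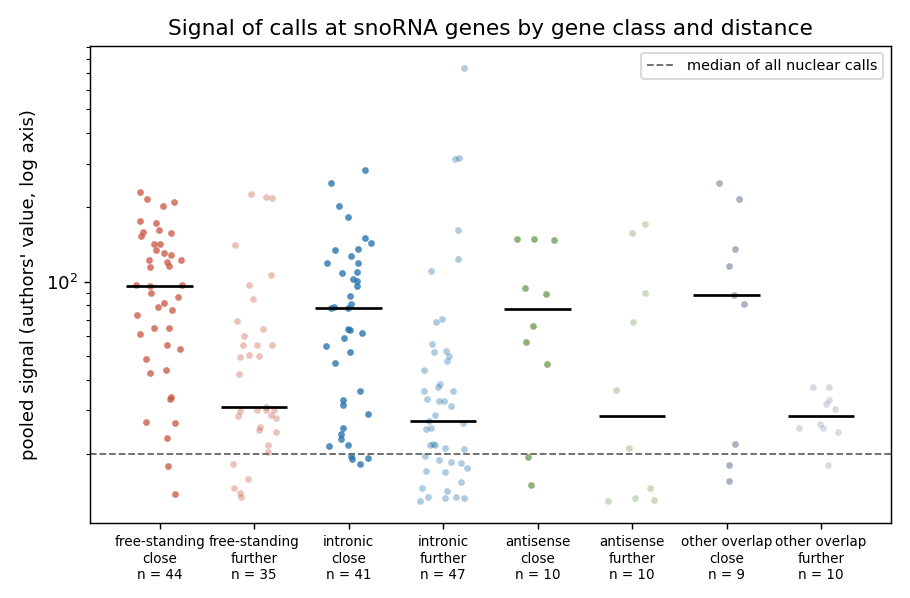
Pooled signal of each call (authors' value, log axis) by class of the snoRNA gene and by whether the summit was close to the 5' end (100 bp upstream to 50 bp downstream) or further away; each point is a call, black lines are medians and the dashed line is the median of all nuclear calls, 19.96. Close calls have medians from 77.3 to 96.3 and the others from 27.1 to 31.0 in the 4 classes.

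Some of the close intronic calls were in the window of the host's own 5' end. Of the 41 close intronic summits, 8 lay in a host window and 10 in the window of any protein-coding 5' end. Among the 49 intronic pairs with the summit further away, 14 lay in the host's window and 18 in a coding window. Over all 90 intronic pairs the counts were 22 and 28. Of the 29979 nuclear calls, 5211 lay in a coding window by the narrower count given above. How many intronic snoRNA genes lie near the 5' end of their host was not counted. At free-standing genes 12 of 44 close summits and 7 of 35 others were in a coding window. At these calls the snoRNA gene and the coding gene cannot be told apart as the place of the signal.

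Both replicates held most of these calls. Of the 204 calls, 168 (82.4%) overlapped a call in each replicate list, against 51.6% of all nuclear pooled calls, and all 90 that overlapped an optimal peak did so. Replicate 1 alone had 19, replicate 2 alone had 14, and 3 were in neither. Over the 168, the log2 signals of the replicates had a Spearman's rho of 0.890 and a Pearson's r of 0.872, given as a description with no p, since the calls share 2 libraries. Neighbouring pooled calls can overlap the same replicate calls, as at T19B4.8, F30H5.4 and W03C9.9. Some pairs of values are therefore counted more than once in these figures and in those that follow for the 168. The signal was higher in replicate 1 at 141 of the 168, with a median ratio of 1.30, but whether both lists share a scale is not known. Positions were alike too: the median close summit was 35 bp upstream in each replicate, and a close summit was found at 27.5% of snoRNA genes in replicate 1 and 28.6% in replicate 2. Close calls had a median signal of 49.0 against 16.6 for the others in replicate 1, and 36.2 against 16.3 in replicate 2.

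**Figure D3:**
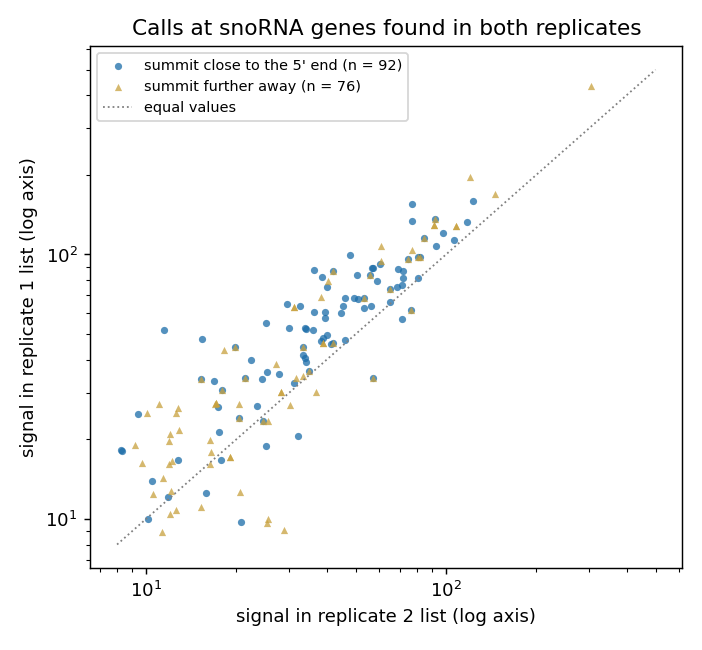
Signal in the replicate 1 list against signal in the replicate 2 list (both log axes) for the 168 calls at snoRNA genes found in both; circles are 92 calls with a close summit, triangles 76 others, and the dotted line marks equal values. Most points, 141 of 168, lie above the line. Some points coincide, since neighbouring calls can share the same replicate calls.

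The highest signals at intronic genes had summits either within reach of a coding 5' end or close to the snoRNA alone. C06A1.9, in an intron of cdc-48.1, which encodes a segregase ATPase of protein turnover, had the highest signal, 739 in the pooled list, 435 in replicate 1 and 305 in replicate 2. Its summit lay 496 bp upstream, in the window of cdc-48.1. F54E7.10, in the ribosomal protein gene rps-12, had 317 (196 and 120 in replicates 1 and 2), 234 bp upstream and in the windows of rps-12 and ska-3. Y24D9A.9, in rpl-7A, had 314 (169 and 145) at 355 bp upstream, in the windows of rpl-7A and set-21. These 3 calls were therefore within reach of a host 5' end and more than 200 bp from the snoRNA. ZK994.7, in pxn-1, had 284 (160 and 123) with its summit 22 bp upstream and no coding 5' end in reach. C51F7.3, in the FERM domain gene frm-7, shared a call of 252 (133 and 118) with its neighbour C51F7.4, which overlaps frm-7 in another way. That summit was 79 bp upstream of C51F7.3 and 30 bp inside C51F7.4.

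The next intronic genes had their summits close to the snoRNA, apart from 1. Y43F8C.22 had 202 (108 and 92.5) at 37 bp upstream, and C27H6.5, in unc-41, had 182 (97.6 and 82.2) at 41 bp upstream. C02F5.15, in the RAD-51 paralogue gene rfs-1, had 162 (107 and 60.7) at 144 bp upstream, where the 5' end of fbxl-1 was also in reach. Y38F2AR.14 had 150 (99.3 and 48.0) at 5 bp upstream, and C16D9.11, in rol-3, had 143 (88.9 and 56.8) at 21 bp upstream. Leaving C02F5.15 aside, none of these had a coding 5' end in reach. The weakest intronic calls were 12.9 at C07H6.10, in the RNA helicase gene cgh-1, and 13.2 at K12D12.7, in the topoisomerase gene top-2. Both lay over 350 bp upstream, and C07H6.10 had no call in replicate 2.

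Among free-standing genes the strongest calls formed an even series without an extreme value. F59C6.15 had 232 (155 and 77.2) at 65 bp upstream, F37F2.4 had 226 (136 and 92.1) at 225 bp upstream, and W06H8.17 had 219.98 (129 and 91.4) at 162 bp upstream. C26C6.13 had 2 summits within one peak region, of 217 at 342 bp and 140 at 134 bp upstream, which overlap the same replicate calls (128 and 108). F37F2.4 was the only gene of these 4 with a coding 5' end, that of F37F2.2, in reach. M7.15 had 216 (114 and 107) at 64 bp upstream. Y53F4B.47 had 211 (134 and 76.8) at 81 bp upstream, where the 5' end of cmtr-1 was in reach. W03C9.9 had 202 (115 and 84.5), also at 81 bp upstream, and T19B4.8 had 176 (97.7 and 80.4) at 50 bp upstream. In the 8 strongest free-standing genes the signal was higher in replicate 1 than in replicate 2 throughout, in the direction of the median ratio. The weakest, F32B5.17 with 13.7 and C17D12.18 with 13.4, had a call in replicate 1 and none in replicate 2.

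The other genes among the 30 strongest with an optimal peak were mostly free-standing or antisense. The free-standing genes F30H5.4 (173), Y53F4B.48 (162), ZK265.10 (159.6), Y75B12B.12 (157) and F32E10.10 (153) had summits between 60 and 19 bp upstream. Y53F4B.48 shared its call with the window of gst-27, which encodes a glutathione S-transferase, and Y75B12B.12 with that of Y75B12B.11. Of the genes antisense in an intron, C27H5.9 in pdl-1 (148.23), T03F7.8 in cutl-18 (148.21) and ZK484.9 in the ABC transporter gene haf-9 (147) had summits 6 to 17 bp upstream. F07A11.15, antisense in the corepressor gene din-1 (172), and B0334.12, antisense in the potassium channel gene twk-5 (158), had them 93 and 101 bp downstream, the first in the window of din-1. F39B2.14, which overlaps tmem-107, had 216 at 96 bp upstream, with the 5' ends of rps-26 and tmem-107 in reach.

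Calls on both sides of the window's edges are given as a description. Signals were higher outside than inside at the upstream edge, and higher inside than outside at the downstream edge. Just inside the upstream edge were K12D12.7 at 499 bp (13.2) and C52G5.13 at 497 bp (18.6), and just outside were R151.11 at 503 bp (110) and Y37E3.21 at 507 bp (87.6). Just inside the downstream edge were Y55F3BR.9 at 197 bp (89.6) and Y37E3.20 at 196 bp (43.8), and just outside were F22D6.16 at 201 bp (17.2) and E01A2.11 at 204 bp (15.3).

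Hosts were taken as ribosomal protein genes by an rpl or rps symbol, so any under another symbol count as other hosts. At snoRNA genes hosted by ribosomal protein genes so defined, no call was close to the snoRNA. Of 19 snoRNA genes in 13 such hosts, 8 had a call (42.1%, exact 95% interval 20.3 to 66.5) and 0 had a close one, which allows a share of up to 17.6%. Of the 9 pairs at these genes, 5 had the summit in the host's own window. In the 131 genes of other hosts, 68 had a call (51.9%, 43.0 to 60.7) and 41 a close one (31.3%, 23.5 to 40.0), and 17 of 81 pairs lay in the host's window. The interval for ribosomal hosts rests on 19 genes. None of these 19 genes held the A box, B box or spaced letters in the stretch searched below. Intronic genes of any host with none of these letters had a close call in 14 of 111 cases (12.6%, 7.07 to 20.3). Kind of host and absence of the letters were thus not separated. The host with the most snoRNA genes was nol-56, which encodes a core protein of C/D snoRNPs and holds 4, of which 2 had a call and 0 a close one. The call at K07C5.11, 395 bp upstream with a signal of 111 (69.1 and 38.4), lay in the nol-56 window. The call at K07C5.18 had 18.3 and none in replicate 1.

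Genes with an A or a B box core before the 5' end had close calls in a larger share than genes without. From 120 bp before the 5' end to 20 bp after it, on the strand of the gene, TGGCNNAG was present at 33 of 346 snoRNA genes (9.54%), against 1.90% of all nuclear genes, and GTTCNANNC at 38 (10.98%), against 2.17%. The strict B box core GTTCGANNC was present at 19 (5.49%), against 0.403%. Either of the first 2 was present at 57 genes, of which 39 had a close call (68.4%, exact 95% interval 54.8 to 80.1) and 44 any call (77.2%). Both were present at 14 genes, of which 13 had a close call (92.9%, 66.1 to 99.8) and 14 any call. With the strict B box, 17 of 19 had a close call (89.5%, 66.9 to 98.7). The relaxed B box, the spaced letters below and the stretch searched were chosen after the sequences under the calls had been seen, so these shares are descriptions and carry no test.

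The spaced letters AAC and TGTC marked a separate group. They were present at 39 snoRNA genes (11.27%), against 0.945% of all nuclear genes, and no gene held both them and an A or B box core. Of the 39, 23 had a close call (59.0%, exact 95% interval 42.1 to 74.4) and 26 any call (66.7%). Of the 250 genes with none of these letters, 42 had a close call (16.8%, 12.4 to 22.0) and 106 any call (42.4%, 36.2 to 48.8). Optimal peaks were at 52.6% of the genes with an A or B box, 35.9% of those with the spaced letters and 12.0% of those with neither, against 3.33% of all nuclear genes. Median signals of the close calls were 103 with a box, 78.4 with the spaced letters and 45.4 with neither. Exact matches to these letters were thus absent from the searched stretch at 42 genes with a close call. Variants beyond the relaxed B box were not searched for, so genes counted with neither can hold them.

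**Figure D4:**
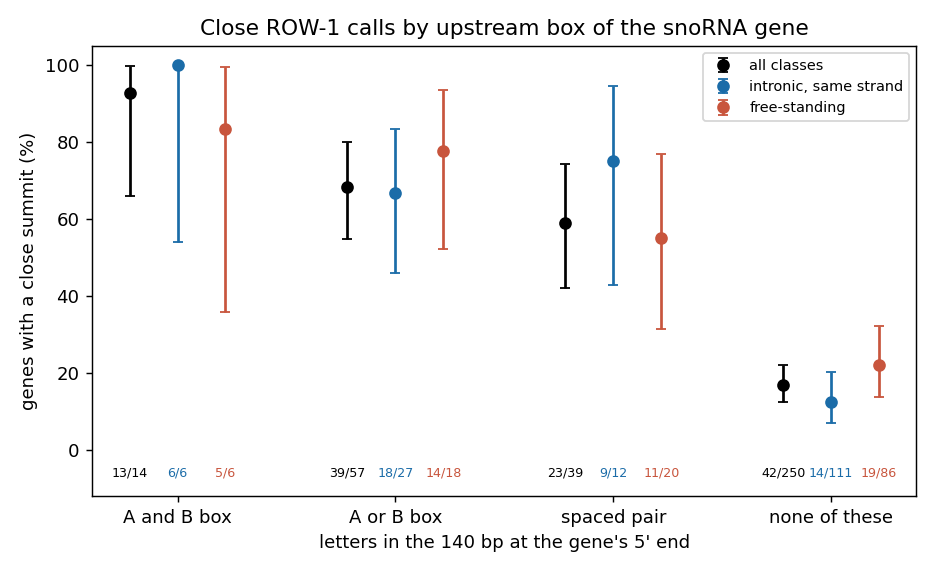
Share of snoRNA genes with a close summit (percent, vertical axis) by the letters found in the 140 bp at the 5' end, for all classes, intronic and free-standing genes; points are shares, bars exact 95% intervals, and the counts below give genes with a close summit over genes; genes with both boxes are also counted under A or B box. Genes with none of the letters are lowest in each class, at 16.8%, 12.6% and 22.1%.

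Genes with neither set of letters were lowest among intronic genes, among free-standing genes and in each replicate. Among intronic genes a close call was found at 18 of 27 with an A or B box (66.7%, exact 95% interval 46.0 to 83.5), 9 of 12 with the spaced letters (75%, 42.8 to 94.5) and 14 of 111 with neither (12.6%, 7.07 to 20.3). Among free-standing genes the counts were 14 of 18 (77.8%, 52.4 to 93.6), 11 of 20 (55%, 31.5 to 76.9) and 19 of 86 (22.1%, 13.9 to 32.3). Genes with a box lay above those with the spaced letters in the free-standing class and below them in the intronic class, with overlapping intervals. In replicate 1 alone, close calls were at 38 of 57 genes with a box, 22 of 39 with the spaced letters and 35 of 250 with neither. In replicate 2 the counts were 39, 21 and 39. The relaxed B box, the spaced letters and the stretch searched were chosen from sequences under these same calls. The order within classes and replicates is therefore not independent of that choice.

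The letters stood at similar distances from the 5' end. The A box core started a median of 60 bp upstream (quartiles 72 and 56 bp) and the B box core 14 bp upstream (18.5 and 11.5 bp). At the 14 genes with both, the B box started 43 to 52 bp after the A box, with a median of 44 bp. The spaced letters started a median of 59 bp upstream (61.5 and 58 bp). Close summits lay a median of 21 bp after the start of the A box (quartiles 13 and 45 bp, 23 genes with a close call). From the start of the B box the median was −19 bp (−33 and 0 bp, 29 genes), so the medians lay between the elements. From the start of the spaced letters it was 41 bp (6 and 54.5 bp, 23 genes). Relative to the 5' end (negative is upstream), the median close summit was at −37 bp with a box and −22 bp with the spaced letters. With none of these letters it was at −32.5 bp (quartiles −57.25 and 4.25 bp). The close range confines all these medians by its definition, so their likeness is not read as a result. In the whole window from 500 bp upstream to 200 bp downstream and on both strands, the strict B box was present at 11.27% of snoRNA genes, against 6.06% of all genes, and the A box core at 25.7%, against 15.6%. TATAAA was present at 50.9%, against 63.4%, and CTGCGTCT at 6.65%, against 4.38%. These letters are matches in sequence, not measured sites of any factor.

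**Figure D5:**
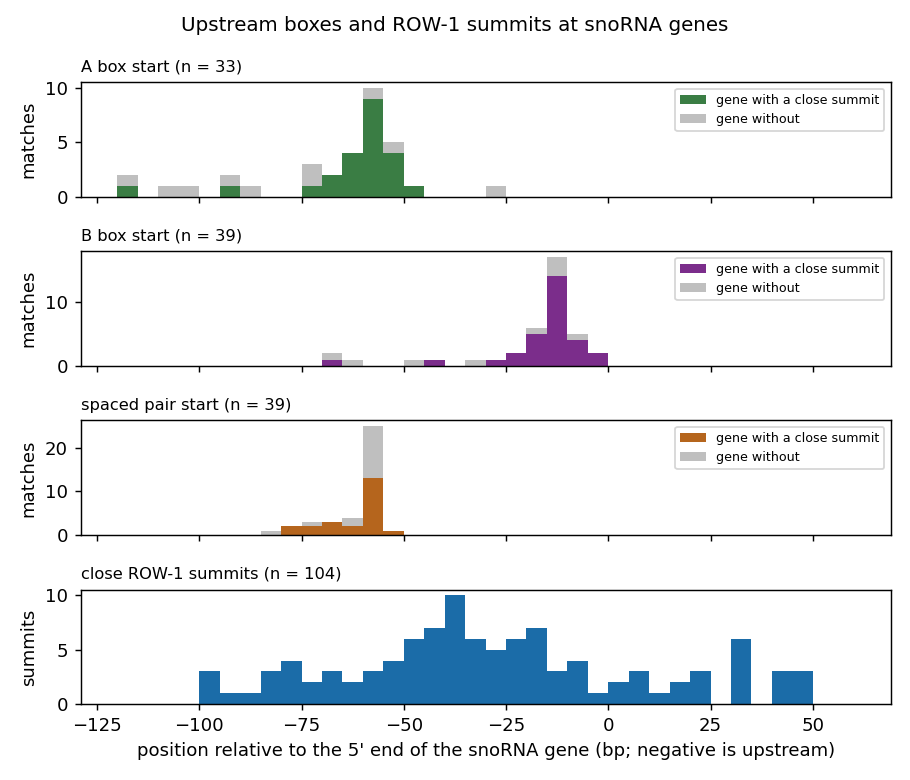
Positions of A box cores (33 matches), B box cores (39), spaced letters (39) and close ROW-1 summits (104) relative to the 5' end of the snoRNA gene (horizontal axis, bp; vertical axes, counts in 5-bp bins); coloured bars are genes with a close summit and grey bars genes without. The A box and the spaced letters peak near 60 bp upstream and the B box near 14 bp. The median close summit lies 32.5 bp upstream. The summit panel is confined to the close range and is not split by letters.

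The 14 genes with both boxes include some of the strongest and some of the weaker calls. Besides Y43F8C.22, W03C9.9, T19B4.8, F32E10.10 and T03F7.8, F55A11.10 in F55A11.6 had a signal of 119 (68.4 and 53.2) at 30 bp upstream. T10B9.11, free-standing, had 116 (63.0 and 53.2) at 38 bp upstream. C04G6.12, antisense in the kinase gene mpk-2, had 88.7 (49.5 and 40.2) at 51 bp upstream. T08B2.13, in fars-1, which encodes a subunit of phenylalanyl-tRNA synthetase, had 81.3 (47.2 and 38.4) at 39 bp upstream, and Y39G10AR.24 had 76.99 (40.5 and 33.8) at 42 bp upstream. ZK546.18, in mdt-4, had 35.9 (30.8 and 17.9) at 18 bp upstream. R166.7, in the kinase gene mnk-1, had 28.9 at 30 bp downstream, with a call in replicate 2 only, and T24H7.6 had 21.6 (10.01 and 10.1) at 20 bp downstream. The remaining gene, Y59E1B.14 on X, had 21.7 (11.1 and 15.2) at 102 bp upstream, just outside the close range.

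Calls were also set against the letters of the snoRNA itself. A C box TGATGA in the first 20 bases with CTGA in the last 20 was found at 14 genes, of which 10 had a call (71.4%, exact 95% interval 41.9 to 91.6). ACA ending 2 to 5 bases from the 3' end, as in H/ACA RNAs, was found at 82, of which 50 had a call (60.98%, 49.6 to 71.6). The 250 genes with neither, to which variant boxes send many true members of both types, had 116 (46.4%, 40.1 to 52.8). These intervals for any call overlap. Close calls were at 9 of the 14 (64.3%, 35.1 to 87.2), 27 of the 82 (32.9%, 22.9 to 44.2) and 68 of the 250 (27.2%, 21.8 to 33.2), where the intervals of the first and the last group do not overlap. The differences were not tested, and the first group holds 14 genes.

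By chromosome, the share with a call ran from 35.2% on III (19 of 54, exact 95% interval 22.7 to 49.4) to 57.7% on II (41 of 71, 45.4 to 69.4). On I it was 56.8%, on V 52.7%, on IV 50.8% and on X 45.5% (15 of 33). Intronic genes on III had a call in 10 of 36 cases (27.8%, 14.2 to 45.2). The interval of III overlaps those of the other chromosomes.

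Genes for the proteins of snoRNA biology were described by the same window around any annotated 5' end, against a background of 29.2% of protein-coding genes with a pooled call and 4.58% with an optimal peak. All 7 genes found for core snoRNP proteins had a call, and 4 had an optimal peak: fib-1 (fibrillarin, the methyltransferase of C/D snoRNPs) with a signal of 147, nol-56 with 111, nol-58 with 103 and dkc-1 (dyskerin, the pseudouridine synthase) with 83.8. The others were Y48A6B.3 (63.6), snu-13 (61.6) and nola-3 (35.9). Integrator genes, whose products cleave the ends of snRNA transcripts, had a call in 10 of 11 cases and an optimal peak in 2, ints-4 (425) and ints-8 (95.5). Genes of the exosome and of nuclear RNA decay had 5 of 10 with a call and 1 optimal peak, exos-4.1 (79.6). The snRNA activating complex and TATA-binding protein list had 2 of 9, with snpc-3.4 at 43.6 and tbp-1 at 16.7, and RNA polymerase III genes 2 of 5, rpc-1 (31.8) and rpc-2 (31.5). Neither of these last lists held an optimal peak. The lists are small and were not tested.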

How the data were processed

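Calls on ce11 came from narrowPeak lists: 1 per replicate (28339 and 25405 rows for replicates 1 and 2), a pooled list (30000 rows) and an optimal list (1574 rows). The peak signal is a value of the authors' caller, deposited with no scale, and the −log10 of the q-value is deposited beside it. The replicate and pooled lists hold peaks and background as input for IDR, per the labels' file listing. Aligner, peak caller and IDR threshold are not given in the labels or file headers, and lists on ce10 were not used.

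Gene positions came from Ensembl release 115 and sequence from RefSeq, both WBcel235, where 0 nuclear chromosomes had a call past their end. The labels call the samples biological replicates and say no more of their origin. Replicate values are those of the strongest overlapping call (1 bp). Shares carry exact Clopper-Pearson intervals at 95%. Depth is unknown. The assignment was tested on 200 planted summits. Named genes followed a rule: the 30 strongest with an optimal peak, the 8 strongest and 2 weakest of both main classes, and those at the window edges; genes with both boxes were named in full after their values were seen. Members and lists were chosen with earlier results of these data known. Of 8 snoRNP proteins listed, 7 matched a symbol. Alternatives were other windows, overlap in place of the summit, stronger calls, the optimal list, 1 replicate alone, merged calls and hosts on either strand. Python 3.11.15, numpy 2.4.6, pandas 2.3.3, scipy 1.17.1 and matplotlib 3.10.9 were used.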

Additional observations from a re-analysis of the deposited data

How the results depend on the processing

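The count of calls stayed within 1.5 times of 204 with 1 replicate alone (without replicate 1, 188; without replicate 2, 211), with the narrow window (250 bp upstream to 100 bp downstream), by overlap and after merging, and became 332 with a wide window (1000 bp upstream, 500 bp downstream), 109 with the strongest 10.4% of calls and 75 with the optimal list. Genes with a call became 101 and 74 under these last 2. The share of free-standing genes with a call was 66.1% in the wide window, 62.1% by overlap, 36.3% with these strongest calls and 26.6% with the optimal list. For intronic genes it was 70% in the wide window, 33.3% in the narrow one, 66% by overlap, 26% with these strongest and 18% with the optimal list. The median signal was 33.1 in the wide window, 70.3 in the narrow one, 97.1 with these strongest calls, 128 with the optimal list, and 25.2 to 26.7 in the list of 1 replicate alone, which has another scale. Fewer or weaker calls enter by construction as lists and windows change. Of 50 values under an alternative, 30 stayed close to the value reported and the other 20 are those given here. Counts of calls that overlap an optimal peak ran from 71 to 111 over the alternatives, against 90. Without depth or a control library, weak calls cannot be told from background.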

Other observations

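At 5 snoRNA genes the 100 bases before the 5' end occur more than once in the genome, among them F19G12.14, T27A8.8, Y73B3A.31 and Y6B3B.15. Of these 5, 0 had a call, beside 176 of all 346 snoRNA genes (50.9%), and 5 genes are too few to compare. How the authors treated reads from repeated sequence is not given in the sources used here, and its part in this was not tested. The 341 other genes are not affected by exact copies of that length.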
